A study of Mus musculus with 30 samples.

Results

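HL-1 cells given the NAMPT inhibitor FK866 together with nicotinamide riboside (NR) were compared with untreated HL-1 cells, to see which transcripts still differed, or newly differed, when the NAD precursor was present. The comparison takes 6 of the 30 samples in the series, the 3 libraries labelled FKNR and the 3 labelled Ctrl, which are the treated and the untreated columns of the HL-1 raw count table. The other HL-1 groups, FK866 alone (FK, 3 libraries) and FK866 with NR and the SIRT1 inhibitor Ex527 (FKNREx, 3 libraries), are given beside them. The remaining samples of the series, from mouse hearts, are not described. Every group was the same HL-1 line, a commercial cardiac muscle line that came from an atrial tumour of an adult female C57BL/6J mouse, kept in a norepinephrine-containing medium, with drugs added after passaging. Replicates were separately cultured wells, so the p-values measure the spread between wells of 1 line. NR without FK866 is not among these groups, and so an effect of NR by itself cannot be told apart from an effect of NR in FK866-treated cells.

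NAD is an electron carrier in metabolism and is also consumed by sirtuins, poly(ADP-ribose) polymerases and the glycohydrolase CD38. Most cells rebuild it from nicotinamide through NAMPT, the step that FK866 blocks. NR enters further along, through the NR kinases NMRK1 and NMRK2, and so bypasses NAMPT.

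Among the transcripts that were higher with FK866 and NR was Dnm3os, a long non-coding RNA that hosts the miR-199a and miR-214 hairpins and was higher than in Ctrl, in FK and in FKNREx. It lies on the forward strand of chromosome 1 (GRCm38, chr1:162217623-162225550), inside the dynamin gene Dnm3, which runs on the reverse strand. The 4 mature miRNAs encoded within it (RefSeq, GRCm38.p6) are shown because they are the known products of this host transcript. Bases 2 to 8, the seed that pairs with targets, are in capitals, and the 4 seeds all differ.
mmu-miR-199a-5p (chr1:162217844-162217866, +): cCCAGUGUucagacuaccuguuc
mmu-miR-199a-3p (chr1:162217883-162217904, +): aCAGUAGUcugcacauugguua
mmu-miR-214-5p (chr1:162223397-162223418, +): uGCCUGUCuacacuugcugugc
mmu-miR-214-3p (chr1:162223438-162223459, +): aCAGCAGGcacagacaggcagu
Poly(A) libraries do not measure mature miRNAs, and both hairpin genes had 0 counts in the 12 libraries, so these sequences carry no measured level here.

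The 12 HL-1 libraries held between 21337922 and 35000109 counts each, and none was a copy of another. The labelled cell type was checked against 12 cardiomyocyte markers on the authors' FPKM scale, which is per length. Of these 12 markers, 7 were below 0.1 FPKM in all 6 FKNR and Ctrl libraries. The cardiac genes Actc1 and Nppa were listed at 0 in all 6, and Myh6 did not exceed 0.0406 FPKM. Gata4 was expressed, at 24.6 to 25.8 FPKM in FKNR and 26.9 to 29.6 in Ctrl. Keratin 19 (Krt19, 391 to 444 FPKM in FKNR and 449 to 525 in Ctrl), uroplakin 3b (Upk3b, 358 to 391 and 423 to 457), Wt1 (93.7 to 97.2 and 94.7 to 107) and Col3a1 (296 to 303 and 297 to 326) were high. Other epithelial markers were not: Krt8 (1.09 to 1.98 and 1.74 to 2.27) and Krt18 (1.31 to 1.51 and 1.42 to 1.93) were low. Epcam, Cdh1 and Cldn4 did not exceed 0.0446 FPKM in FKNR or Ctrl. Col3a1 is a fibroblast marker, as are Col1a1 (86.8 to 91.2 FPKM in FKNR and 90.8 to 101 in Ctrl) and Dcn (24.1 to 25.8 and 26.8 to 31.2). The fibroblast markers Pdgfra (3.0 to 3.22 and 2.56 to 3.14) and Col1a2 (2.12 to 2.41 and 2.31 to 2.57) were lower. In FKNR and Ctrl, the fibroblast marker Dpt did not exceed 0.251 FPKM, and Lum and Postn did not exceed 0.112. The light chain genes Myl7 (0.232 to 0.871 FPKM in FKNR and 0.334 to 0.873 in Ctrl) and Myl4 (0.0754 to 0.12 and 0.017 to 0.118) were detected at low levels. Most of the 12 markers were thus at or near 0, and the cells are called by their label, HL-1.

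One library of the comparison stood apart. FKNR 1 was the highest of the 12 libraries for 26 of the 60 markers of other cell types and of cardiomyocytes, against 0 to 7 in any other library, and the macrophage gene Lyz2 was at 7.16 FPKM there and 0 in FKNR 2, FKNR 3 and all Ctrl libraries. The summed FPKM of the 8 macrophage and leukocyte markers ranged from 8.12 to 15.6 in FKNR and from 8.07 to 9.59 in Ctrl, and that of the 8 endothelial markers from 0.0929 to 0.469 and from 0.0185 to 0.0372. The summed 8 epithelial markers ranged from 847 to 926 FPKM in FKNR and from 970 to 1090 in Ctrl, without overlap. Krt19, Upk3b and Wt1 made up almost all of this sum. The cardiomyocyte sum (26.1 to 27.1 in FKNR and 27.9 to 31.4 in Ctrl) and the fibroblast sum (417 to 422 and 424 to 460) were also lower without overlap. The endothelial sum was higher without overlap, and the other sums overlapped. Of all genes tested, 45.0% did not overlap between the groups. At the other end of the first principal component (26.2% of the variance) was Ctrl 3, at −35.9 against 39.0 for FKNR 1. In bulk libraries, fewer cells of a type and less RNA per cell cannot be told apart.

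With FK866 and NR, 133 genes differed from untreated cells, 117 higher and 16 lower. A gene was called when the Benjamini-Hochberg adjusted p of edgeR's quasi-likelihood test was under 0.01 and the change was over 1.5-fold, a log2 fold change of 0.585. The calls were 0.901% of the 14760 genes tested, 0.793% higher and 0.108% lower. With FK866 alone, 678 genes (4.59%) were called against the same Ctrl libraries, 309 higher (2.09%) and 369 lower (2.5%). For every one of the 133 genes the 3 FKNR values lay entirely on one side of the 3 Ctrl values, as they did for 45.0% of all genes tested.

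The 133 calls lay close to the threshold. Their adjusted p ranged from 0.00729 to 0.00996, the next gene past the fold minimum was at 0.0101, and 661 genes (4.48%) passed the fold minimum at an adjusted p under 0.05, 583 higher (3.95%) and 78 lower (0.528%). Without FKNR 1, no gene reached an adjusted p under 0.01 in edgeR (4431 genes at an unadjusted p under 0.05), and 123 of the 133 had an adjusted p under 0.05. Without Ctrl 3 there were again no calls (4065 genes at an unadjusted p under 0.05), with all 133 at an adjusted p under 0.05, and without both of these libraries none of the 133 had an adjusted p under 0.05 in edgeR (2848 genes at an unadjusted p under 0.05). Leaving out Ctrl 2, FK 1, FKNR 2 or FKNR 3 also gave 0 calls in edgeR (5109 to 5587 genes at an unadjusted p under 0.05), whereas 427 genes were called without Ctrl 1, 322 without FK 2 and 292 without FK 3. DESeq2 on all 12 libraries called 321 genes (2.17%), among them 127 of the 133. The number of calls therefore depended on single wells, and the values per well are given below for that reason.

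Of the 133 genes, 24 were also called with FK866 alone, all 24 in the same direction. The other 109 were not called with FK866 alone. Both contrasts use the same Ctrl libraries, so these counts are descriptions.

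**Figure D1:**
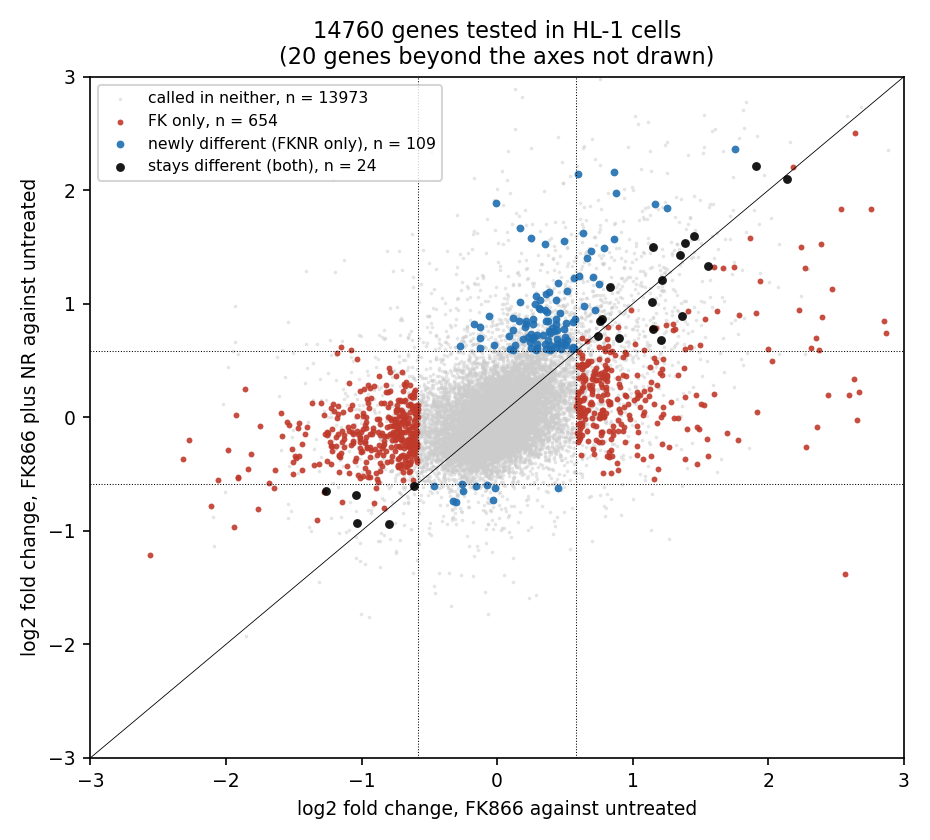
Each point is 1 of the 14760 tested genes, with its log2 fold change in FK against Ctrl on the horizontal axis and in FKNR against Ctrl on the vertical axis. Dotted lines mark the fold minimum, the diagonal marks equal changes, and 20 genes beyond the axes are not drawn. The 654 genes called only with FK866 (red) centre near 0 on the vertical axis, with medians of 0.20 and −0.16, while the 109 newly different genes (blue) and the 24 called in both (black) lie past the fold minimum there.

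The 24 genes that stayed different were chosen by both contrasts, so their values in FK and FKNR are a description. The 18 higher genes had a median log2 fold change of 1.18 in FKNR and 1.22 in FK, and the 6 lower genes of −0.81 and −1.03. Of the 24, 23 were not called in FKNR against FK, a comparison in which 710 genes (4.81%) were called, 2.79% higher and 2.02% lower. A missed call does not show equal levels, and the values for single genes follow.

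Levels per well are given as CPM, the counts of a gene scaled to library size with TMM. The largest change among the higher genes with an average count of at least 50 and a known name was that of Gng3, a gamma subunit of heterotrimeric G proteins. It was at 1.56, 1.49 and 0.787 CPM in Ctrl, 3.65, 2.44 and 3.94 in FK, and 4.73, 2.8 and 3.64 in FKNR. All FKNR and FK wells lay above all Ctrl wells (log2 fold change FKNR against Ctrl 1.53 ± 0.28 SE, adjusted p = 0.00908 in edgeR, and 1.38 in FK). Pla2g4c, a cytosolic phospholipase A2, was at 2.04, 1.38 and 1.77 CPM in Ctrl, 3.21, 2.92 and 3.11 in FK, and 4.22, 3.63 and 3.67 in FKNR. Its 3 FKNR wells were above the 3 FK wells as well as above Ctrl (1.15 ± 0.18 SE, adjusted p = 0.00729 in edgeR). Both are low-abundance transcripts.

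Neat1, the non-coding RNA that scaffolds nuclear paraspeckles (GRCm38, chr19:5824708-5845478, reverse strand), was at 190, 209 and 152 CPM in Ctrl, 501, 460 and 455 in FK, and 371, 381 and 274 in FKNR. The FKNR wells lay between the Ctrl and the FK wells without overlapping either (0.90 ± 0.16 SE, adjusted p = 0.00891 in edgeR, 1.36 in FK). The fall from FK to FKNR was 0.47 on the log2 scale, under the fold minimum (adjusted p = 0.0376 in edgeR). Its change against Ctrl was 0.46 after a trend of counts on gene length was removed.

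Other higher genes included matrix genes and transcription factors. Col7a1, the collagen of anchoring fibrils, was at 4.23, 4.56 and 3.5 CPM in Ctrl and 8.12, 9.39 and 7.42 in FKNR (1.01 ± 0.21 SE, adjusted p = 0.00942 in edgeR), against 8.91, 9.65 and 8.63 in FK. Mitf, a transcription factor of pigment cells and of lysosomal genes, was at 2.4, 3.01 and 2.56 CPM in Ctrl and 4.82, 5.16 and 4.63 in FKNR (0.87 ± 0.15 SE, adjusted p = 0.00835 in edgeR), against 4.55, 4.16 and 4.92 in FK. In both genes the FK and FKNR wells overlapped each other and no Ctrl well. Egr1, an immediate early transcription factor, was at 10, 8.13 and 9.8 CPM in Ctrl, 16.5, 15 and 15.7 in FK, and 20.9, 15.3 and 14.3 in FKNR (0.85 ± 0.16 SE, adjusted p = 0.00932 in edgeR). Col20a1 (log2 fold change 0.78 in FKNR and 1.15 in FK) and Fam13b (0.72 and 0.74) were the others named in this direction.

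Among the lower genes, Fbxo2, the F-box subunit of a ubiquitin ligase for glycoproteins, was at 43.9, 43.2 and 49.1 CPM in Ctrl, 24.4, 24.5 and 17.6 in FK, and 29.3, 29.1 and 26.3 in FKNR (−0.69 ± 0.11 SE, adjusted p = 0.00729 in edgeR). Nkain4, which interacts with the sodium pump, was the 1 gene of the 24 also called in FKNR against FK. It was at 21.6, 27.6 and 27.4 CPM in Ctrl, 11.9, 11 and 9.02 in FK, 16.1, 15.4 and 17.2 in FKNR, and 11.7, 12 and 12.9 in FKNREx. The FKNR wells were thus above FK (log2 fold change 0.61, adjusted p = 0.00144 in edgeR) and below Ctrl (−0.65 ± 0.11 SE, adjusted p = 0.00746 in edgeR), and the FKNREx wells lay among the FK wells or just above them.

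Mogat2, a monoacylglycerol acyltransferase, was at 3.31, 3.15 and 2.99 CPM in Ctrl, 1.25, 1.59 and 1.77 in FK, and 1.72, 1.62 and 1.63 in FKNR (−0.93 ± 0.18 SE, adjusted p = 0.00942 in edgeR). Hsd17b10, a mitochondrial dehydrogenase that is also a subunit of mitochondrial RNase P, was at 31.6, 33.5 and 39 CPM in Ctrl, 20.8, 24.4 and 22.9 in FK, and 22.5, 22.2 and 23.7 in FKNR (−0.60 ± 0.10 SE, adjusted p = 0.00729 in edgeR). For both, FK and FKNR wells overlapped and lay below all Ctrl wells. The call of mt-Atp8 rested on its values in Ctrl, 360, 22.5 and 28.2 CPM, of which Ctrl 1 stands far above the others, against 4.78, 8.78 and 9.61 in FKNR (−4.13 ± 0.86 SE, adjusted p = 0.00986 in edgeR). Without Ctrl 1 the change was −1.70 (adjusted p = 0.00553 in edgeR), and mt-Atp8 overlaps mt-Atp6, so its counts are uncertain.

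Most genes called with FK866 alone were not called when NR was present. These were 654 genes, 291 higher and 363 lower. They were chosen by both contrasts, so smaller medians in FKNR are built in and the values are a description. The median of the 291 was 0.83 in FK and 0.20 in FKNR, and 145 of them were called lower in FKNR than in FK. The median of the 363 was −0.79 in FK and −0.16 in FKNR, and 214 were called higher in FKNR than in FK. Over all genes 2.02% were called lower and 2.79% higher in FKNR than in FK. That comparison uses the FK libraries by which the genes were chosen. Without a fold minimum, at an adjusted p under 0.05, 72 of the 291 were still higher than Ctrl and 94 of the 363 still lower, while 16 and 11 were on the opposite side. Over all genes that looser rule took 11.1% as higher and 12.8% as lower.

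The 109 newly different genes were 99 higher and 10 lower. They were chosen as called in FKNR and not in FK, so smaller medians in FK are built in. The 99 had a median log2 fold change of 0.82 in FKNR and 0.38 in FK, and the 10 of −0.62 and −0.21. A direct comparison with FK called 23 of the 109, 20 higher and 3 lower in FKNR than in FK, where 2.79% and 2.02% of all genes were. That comparison uses the FKNR libraries by which the genes were chosen. For the other 86, the test of FKNR against FK did not pass.

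Dnm3os, whose miRNAs are printed above, was among the 23. It was at 6.63, 5.98 and 5.75 CPM in Ctrl, 9.58, 5.96 and 8.35 in FK, 15.7, 12.7 and 11.1 in FKNR, and 6.86, 6.61 and 6.43 in FKNREx. Every FKNR well was above every well of the other groups. The log2 fold change was 1.10 ± 0.16 SE against Ctrl (adjusted p = 0.00729 in edgeR) and 0.72 against FK (adjusted p = 0.00316 in edgeR). It was the only 1 of the 109 also called in FKNREx against FKNR, where it fell by 0.99 on the log2 scale (adjusted p = 0.00177 in edgeR), a comparison in which 88 genes (0.596%) were called. Without FKNR 1 its change against Ctrl was 0.96 (adjusted p = 0.0469 in edgeR), and 0.97 with the length trend removed. Dnm3 itself was at 2.16, 1.66 and 1.22 CPM in Ctrl and 5.29, 2.53 and 1.45 in FKNR, and the groups overlapped (0.86, adjusted p = 0.105 in edgeR). The strand of the reads is not given in the sources used here, so reads from Dnm3os and Dnm3 cannot be told apart where they overlap.

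Among the lower genes, Rnd2, an atypical small GTPase (GRCm38, chr11:101464999-101471853), was above Ctrl with FK866 alone and below Ctrl with FK866 and NR. It was at 11.7, 10.5 and 12.3 CPM in Ctrl, 16.3, 17.7 and 13 in FK, 7.98, 6.95 and 7.49 in FKNR, and 10.4, 10.4 and 11.1 in FKNREx. FK wells were above Ctrl, by 0.45 on the log2 scale and under the fold minimum (adjusted p = 0.00844 in edgeR), and FKNR wells below it (−0.62 ± 0.12 SE, adjusted p = 0.00925 in edgeR). FKNR was 1.07 below FK on the log2 scale (log2 fold change −1.07, adjusted p = 1.38e-05 in edgeR). FKNREx was above FKNR by 0.51, which did not pass (adjusted p = 0.0173 in edgeR). Gpank1, a G-patch protein, was at 11.2, 12 and 12 CPM in Ctrl, 12.9, 12.1 and 9.89 in FK, and 6.72, 8.52 and 7.6 in FKNR (−0.62, adjusted p = 0.00925 in edgeR).

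Several of the newly higher genes encode very large proteins. Lrp1, a large endocytic receptor, was at 487, 352 and 287 CPM in Ctrl, 340, 293 and 398 in FK, and 757, 611 and 582 in FKNR (0.79 ± 0.16 SE, adjusted p = 0.00946 in edgeR, and 0.92 against FK, adjusted p = 0.000784 in edgeR). Pkhd1l1, a large membrane protein related to fibrocystin, was at 349, 276 and 223 CPM in Ctrl, 269, 208 and 339 in FK, and 582, 489 and 506 in FKNR (0.89 ± 0.17 SE, adjusted p = 0.00916 in edgeR). For both, FK wells lay within or near the Ctrl range and FKNR wells above both groups. Tenm3, a teneurin of the cell surface, was at 95.1, 76.9 and 66.5 CPM in Ctrl and 129, 125 and 133 in FKNR (0.70, adjusted p = 0.00932 in edgeR). Dync2h1, the dynein heavy chain of cilia, was at 12.9, 11.6 and 9.37 CPM in Ctrl and 23.3, 19.3 and 19.6 in FKNR (0.87, adjusted p = 0.00729 in edgeR). Birc6, a giant ubiquitin ligase, was at 178, 142 and 112 CPM in Ctrl and 281, 250 and 248 in FKNR (0.85, adjusted p = 0.00942 in edgeR). With the length trend removed, these changes were 0.43 for Lrp1, 0.51 for Pkhd1l1, 0.50 for Tenm3, 0.52 for Dync2h1 and 0.33 for Birc6, each under the fold minimum. Ago3, an Argonaute protein of miRNA silencing (0.71), and Xndc1 (0.85) completed the genes named by this rule, with 0.36 and 0.82 after the trend was removed.

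Outside these, the largest changes in either direction were in less abundant genes or already described. Prune2 and Muc16, a mucin, both had a log2 fold change of 1.24, Spaca6 one of 1.11, and Ccdc39, a ciliary protein, one of 1.03. Epop was at 5.67, 5.67 and 4.84 CPM in Ctrl and 3.01, 3.19 and 3.5 in FKNR (−0.73). The mitochondrial proteins Ndufa11 of complex I (28.6, 37.1 and 41.5 CPM in Ctrl, 21.6, 23.1 and 25.6 in FKNR, −0.61) and Mrps24 of the mitochondrial ribosome (27.1, 29.5 and 38.1, then 20.4, 20.9 and 21.6, −0.59) were both lower. Wdr83os (−0.65) and Hdhd3 (−0.61) completed the lower set.

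**Figure D2:**
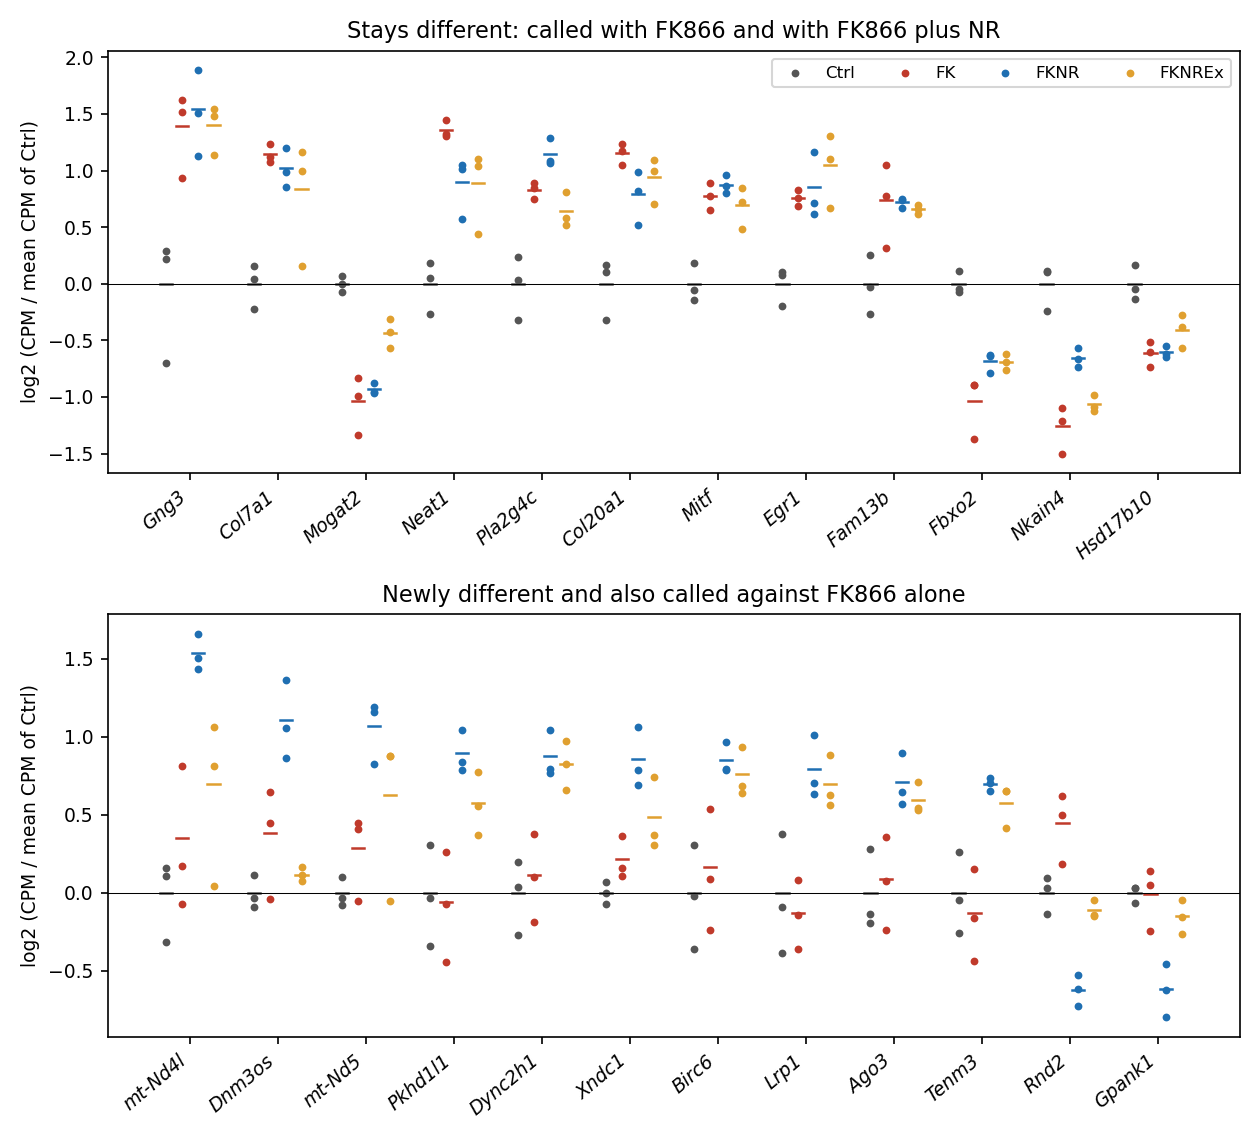
Level of each named gene in each library as log2 of its CPM over the mean CPM of the 3 Ctrl libraries, with 1 point a library and a bar at each group mean, for genes called in both FK and FKNR (top, mt-Atp8 not drawn) and for newly different genes also called against FK (bottom). FKNR points (blue) lie apart from Ctrl points (grey) for every gene drawn, and Dnm3os and Rnd2 in FKNREx (yellow) lie close to 0.

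Transcripts of the mitochondrial genome were the gene list with the most calls. Of its 13 protein-coding genes, all tested, 5 were higher with FK866 and NR and 1, mt-Atp8, was lower, where 0.793% and 0.108% of all genes were called. With FK866 alone no member was called higher in edgeR, and mt-Atp8 was again called lower. The cytochrome oxidase gene mt-Co1 was at 3757, 4777 and 3918 CPM in Ctrl, 5789.5, 5119 and 5098 in FK, and 9855, 9068 and 7509 in FKNR (1.09 ± 0.21 SE, adjusted p = 0.00932 in edgeR). The complex I gene mt-Nd5 was at 1098, 1205 and 1063 CPM in Ctrl, 1487, 1084 and 1529 in FK, and 2563, 2506 and 1988 in FKNR (1.07 ± 0.19 SE, adjusted p = 0.00909 in edgeR, and 0.78 against FK, adjusted p = 0.00741 in edgeR). FKNR wells were above all Ctrl and FK wells for both.

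The other 3 higher genes were mt-Nd4l, mt-Cytb and mt-Nd2. The complex I gene mt-Nd4l, whose end overlaps the start of mt-Nd4, was at 4.43, 6.16 and 5.94 CPM in Ctrl, 6.2, 5.23 and 9.69 in FK, and 15.6, 17.4 and 14.9 in FKNR (1.53 ± 0.24 SE, adjusted p = 0.00729 in edgeR, and 1.18 against FK, adjusted p = 0.00183 in edgeR). The complex III gene mt-Cytb had a log2 fold change of 0.95 and mt-Nd2 of 0.61. The rest were not called. Of these, mt-Co2 (0.27, adjusted p = 0.298 in edgeR), mt-Co3 (−0.21, adjusted p = 0.286), mt-Atp6 (0.06, adjusted p = 0.795) and mt-Nd3 (−0.59, adjusted p = 0.0702) did not reach an adjusted p of 0.05. In contrast, mt-Nd4 (0.97, adjusted p = 0.0115 in edgeR) and mt-Nd6 (0.83, adjusted p = 0.0111 in edgeR) were past the fold minimum and just missed the adjusted p, and mt-Nd1 (0.50, adjusted p = 0.0099 in edgeR) missed the fold. The mean Ctrl levels of mt-Co2, mt-Co3 and mt-Atp6 were 75.4, 86.0 and 73.5 CPM, far below the 4151 of mt-Co1. The reason for these low levels was not tested.

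As a share of all counts, the mitochondrial genome took 1.27, 1.53 and 1.39% in Ctrl, 1.90, 1.72 and 1.70% in FK, 2.73, 2.58 and 2.15% in FKNR, and 2.15, 2.21 and 1.22% in FKNREx. The FKNR share, 2.49% ± 0.302 (SD, n = 3), did not overlap the Ctrl share, 1.40% ± 0.127 (SD, n = 3), and the exact two-sided permutation p was 0.1, the smallest that 3 wells against 3 allow. FK also did not overlap Ctrl, at 1.77% ± 0.108 (SD, n = 3). The library FKNREx 3 stood below the other FKNREx libraries.

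**Figure D3:**
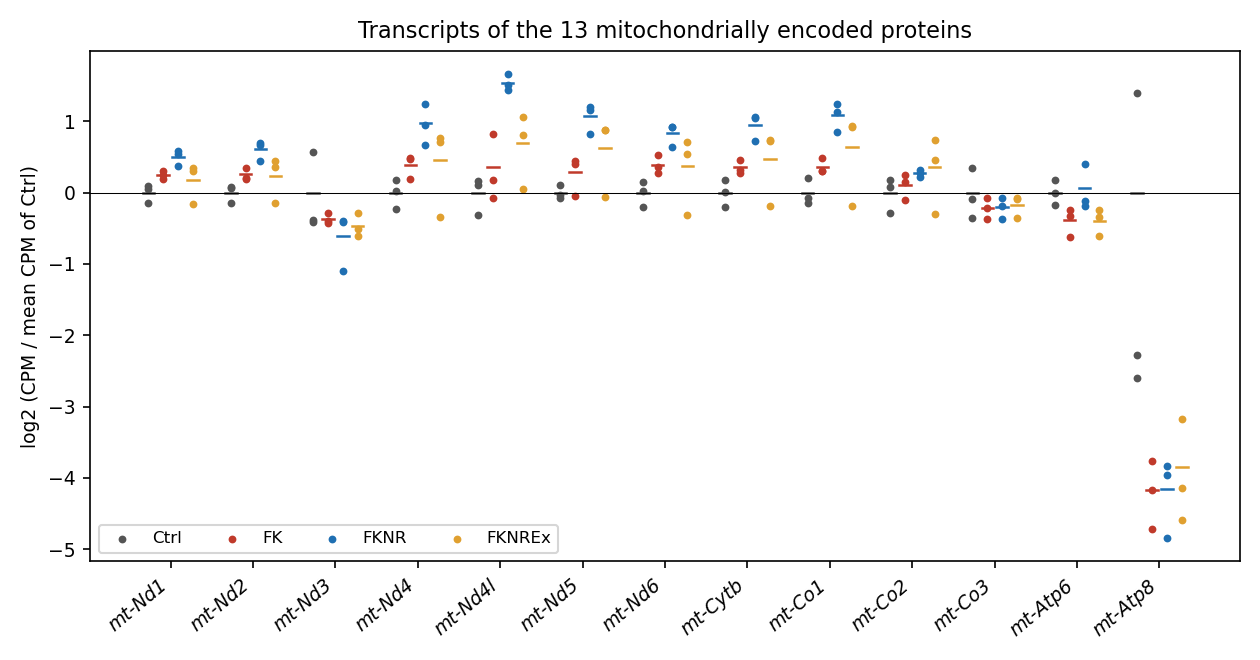
Level of the 13 mitochondrially encoded protein transcripts in each library as log2 of CPM over the mean CPM of the 3 Ctrl libraries, with 1 point a library and a bar at each group mean. FKNR points (blue) lie above all Ctrl points (grey) for the 5 called genes mt-Nd4l, mt-Co1, mt-Nd5, mt-Cytb and mt-Nd2, and for mt-Atp8 Ctrl 1 lies far above the other Ctrl libraries.

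Gene length moved with the comparison. Median log2 fold changes in FKNR were −0.14 for the 1317 genes of up to 1000 bases, −0.19 for the 1966 of 1001 to 2000, −0.10 for the 4345 of 2001 to 4000, 0.05 for the 4939 of 4001 to 8000 and 0.23 for the 2193 longer than 8000. In FK the shortest and longest classes had medians of −0.03 and 0.06, and in FKNREx −0.11 and 0.17. Of the 117 higher genes 57 were longer than 8000 bases, and of the 16 lower genes 15 were no longer than 2000. The newly higher genes had a median length of 8666 bases and the newly lower ones of 1229. Across the 14760 genes, which are not independent replicates, the Spearman rank correlation of length with the log2 fold change was 0.365 in FKNR and 0.0747 in FK.

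The wells of a group also differed in this respect. The median deviation from the mean of the 12 libraries, on the log2(CPM + 1) scale, of genes longer than 8000 bases minus that of genes of 1001 to 2000 bases was −0.01, −0.15 and −0.35 in Ctrl, −0.07, −0.30 and 0.12 in FK, 0.24, 0.13 and 0.17 in FKNR, and 0.07, 0.12 and 0.07 in FKNREx. FKNR wells were all above Ctrl wells, and Ctrl 3 was the lowest of the 12. With the length trend removed in each library, edgeR called 99 genes, 95 higher and 4 lower, of which 58 were among the 133. Of the 133, 130 had an adjusted p under 0.05 after the trend was removed, with medians of 0.63 for the higher and −0.47 for the lower genes. The part of RNA quality in the length trend was not tested.

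By type of gene, several non-coding annotation classes had high medians. The 277 genes annotated as TEC, transcripts still awaiting experimental support, had a median of 0.65 in FKNR with 13 called higher, and the 396 antisense genes of 0.40 with 6 called higher. The 40 sense-intronic genes had a median of 0.80 and the 49 snoRNA genes of 0.67, with 0 called in either class. In the same order, the medians of these classes were 0.40, 0.29, 0.46 and 0.47 in FK, and 0.40, 0.19, 0.57 and 0.60 in FKNREx. The 12254 protein-coding genes had a median of −0.01, with 84 called higher and 12 lower. These counts and lengths are descriptions of the called genes, with no test.

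**Figure D4:**
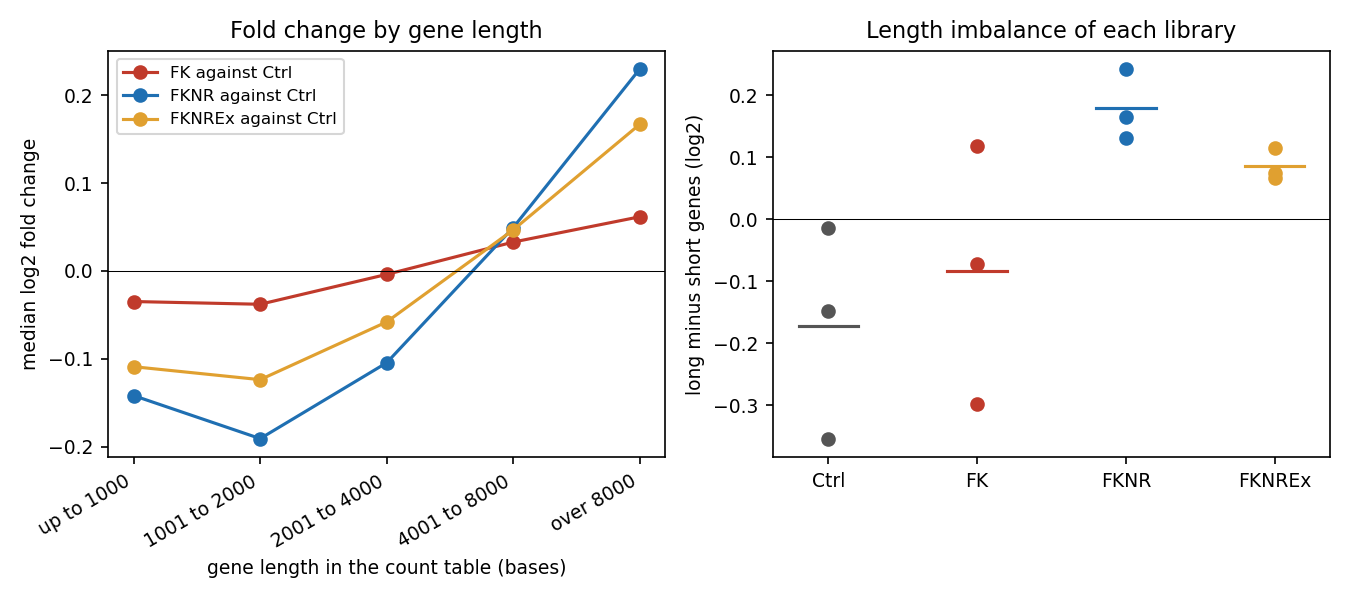
Median log2 fold change against Ctrl in 5 classes of gene length (bases) for FK, FKNR and FKNREx (left), and for each of the 12 libraries the deviation of genes over 8000 bases minus that of genes of 1001 to 2000 bases (log2, right), with bars at group means. In FKNR the medians run from −0.14 for the shortest genes to 0.23 for the longest, and the 3 FKNR libraries lie above the 3 Ctrl libraries.

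Genes that make NAD did not differ by the main rule. Of 23 genes listed for NAD synthesis 15 were tested and none was called in edgeR (0 higher and 3 lower at an unadjusted p under 0.05, where 19.1% and 20.2% of all genes were, and none called by DESeq2). Nampt, the target of FK866, was at 169, 161 and 162 CPM in Ctrl, 145, 137 and 146 in FK, 157, 167 and 169 in FKNR, and 132, 134 and 147 in FKNREx. FKNR wells overlapped Ctrl (0.00 ± 0.06 SE, adjusted p = 0.998 in edgeR), whereas the change was −0.20 in FK. Nmrk1, an NR kinase, was at 14.5, 15.2 and 14.6 CPM in Ctrl and 16, 18.3 and 14.1 in FKNR, and the groups overlapped (0.12, adjusted p = 0.401 in edgeR). Nmrk2, the other NR kinase, was too low to be tested. Naprt, which makes NAD from nicotinic acid and was chosen after its values were seen, was at −0.71 in FK and −0.42 in FKNR (adjusted p = 0.0604 in edgeR).

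Of 27 genes that consume NAD or break down its products 26 were tested. Of these 1, Aox1, was called higher, where 0.793% of all genes were. Aox1, an aldehyde oxidase that oxidises methylated nicotinamide (GRCm38, chr1:58029931-58106413, forward strand), was at 58, 58.1 and 44.5 CPM in Ctrl, 48.5, 43.7 and 54.9 in FK, 86.9, 82.5 and 76.8 in FKNR, and 69.6, 75.2 and 59.5 in FKNREx. Every FKNR well was above every other well, by 0.62 ± 0.11 SE against Ctrl (adjusted p = 0.00909 in edgeR) and 0.74 against FK (adjusted p = 0.00024 in edgeR). In FKNREx the change against Ctrl was 0.35, and with the length trend removed that of FKNR was 0.46. Nnmt, which makes methylated nicotinamide, was at −0.44 and not called. Other members of the list differed in FK. Cd38, the NAD glycohydrolase, was at 228, 232 and 229 CPM in Ctrl, 144, 153 and 156 in FK, and 269, 267 and 281 in FKNR, so that FKNR wells were above Ctrl without passing the call (0.24, adjusted p = 0.0103 in edgeR) and far above FK (0.85). The ectoenzymes Nt5e and Enpp1 were at −1.01 and −0.99 in FK and at −0.13 and 0.04 in FKNR, and Parp14 at 1.17 and 0.49. Cd38, Nnmt, Nt5e, Enpp1 and Parp14 were chosen after their values were seen.

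Of the 7 sirtuins, none was called in FKNR in edgeR or by DESeq2. At an unadjusted p under 0.05 in edgeR, 1 was higher and 1 lower, where 19.1% and 20.2% of all genes were. Sirt1, the NAD-dependent deacetylase that Ex527 inhibits, was at 23.4, 22.6 and 22.3 CPM in Ctrl, 36.7, 32.5 and 41.6 in FK, 28.2, 27.7 and 27.3 in FKNR, and 28.2, 23.7 and 30.2 in FKNREx. It was called in FK (0.70), and in FKNR its wells lay between FK and Ctrl without overlap (0.28 ± 0.10 SE, adjusted p = 0.048 in edgeR). The step from FK to FKNR was −0.42 (adjusted p = 0.00522 in edgeR), under the fold minimum.

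The 250 bases before the annotated start of Aox1 and of Sirt1 (RefSeq, GRCm38.p6) are printed as examples from the NAD genes named. Aox1 was called only with NR. Sirt1 was among the genes called only with FK866 alone, as was Naprt. Capitals mark CACGTG (E-box), TGACTCA (AP-1), and CCAAT or its reverse ATTGG, searched on both strands together with TGACGTCA and TGATGNAAN.
Aox1 (chr1:58029719-58029968, +): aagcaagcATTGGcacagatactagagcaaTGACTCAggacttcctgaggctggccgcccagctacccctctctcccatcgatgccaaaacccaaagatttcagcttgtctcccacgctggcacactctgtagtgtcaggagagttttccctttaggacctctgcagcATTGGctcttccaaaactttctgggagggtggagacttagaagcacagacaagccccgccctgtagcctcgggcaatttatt
Sirt1 (chr10:63339036-63339285, −): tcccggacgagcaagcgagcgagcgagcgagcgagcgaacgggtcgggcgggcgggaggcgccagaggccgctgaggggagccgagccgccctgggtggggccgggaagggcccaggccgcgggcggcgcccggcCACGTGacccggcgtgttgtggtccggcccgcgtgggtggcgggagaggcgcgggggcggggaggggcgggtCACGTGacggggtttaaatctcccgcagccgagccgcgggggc
The Sirt1 window held 2 CACGTG, which begin 115 and 43 bases before the start, and the Aox1 window 1 TGACTCA and 2 ATTGG. Among 32851 RefSeq windows of this length, 6.02% held CACGTG, 4.46% TGACTCA, 1.55% TGACGTCA, 3.44% TGATGNAAN and 33.8% CCAAT. Of the 44 named genes 28 had a window, 31 windows in all, of which 1 held CACGTG, 1 TGACTCA, 3 TGACGTCA, 0 TGATGNAAN and 10 CCAAT. These are letter matches only.

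Of 20 listed core clock genes 18 were tested. Of these 1, the period gene Per2, a negative regulator of the circadian loop, was called higher, where 0.793% of all genes were. Without a fold minimum 3 were higher and 2 lower at an adjusted p under 0.05, where 11.1% and 12.8% of all genes were. Per2 was at 25.8, 21.8 and 21.6 CPM in Ctrl, 33, 30.9 and 38.2 in FK, 36.2, 35.7 and 33.7 in FKNR, and 35.7, 41.8 and 35.3 in FKNREx. All treated wells lay above all Ctrl wells, by 0.61 ± 0.10 SE in FKNR (adjusted p = 0.00729 in edgeR), 0.56 in FK, under the fold minimum, and 0.71 in FKNREx. It therefore counts as newly different through the fold minimum, and the FK and FKNR wells overlap. Per1, which was chosen after its values were seen, was at 19.5, 21 and 18.3 CPM in Ctrl, 33.6, 37.7 and 33.7 in FK, and 31, 32.4 and 24.5 in FKNR (0.57, adjusted p = 0.00916 in edgeR), just under the fold minimum. Dbp, a clock output gene also chosen after its values were seen, was called lower in FK (−0.73) and was at −0.44 in FKNR. The labels give no collection time for these wells, so no rhythm can be read from the values.

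Several lists with many calls in FK held no called gene, or 1, when NR was present. For these lists, here and below, 2.09% of all genes were called higher and 2.5% lower in FK. In FKNR 0.793% were called higher and 0.108% lower, so no call in a list is near the share over all genes. At an unadjusted p under 0.05 in edgeR, 19.1% of all genes were higher and 20.2% lower in FKNR. Of 33 tested interferon response genes, 11 were called higher in FK and none in FKNR in edgeR (2 higher and 6 lower at an unadjusted p under 0.05, none called by DESeq2). In FKNR against FK 11 were called lower, where 2.02% of all genes were. The antiviral gene Rsad2 was at 2.52, 2.39 and 2.2 CPM in Ctrl, 13.4, 11.8 and 13.4 in FK, and 2.92, 2.49 and 2.76 in FKNR (2.44 in FK and 0.20 in FKNR). Ifit1 was at 1.51 and 0.11, and Isg15 at 0.89 and −0.46 (adjusted p = 0.0222 in edgeR). These genes, and those named from the stress response, matrix, Notch and Wnt, NRF2 and nuclear respiratory lists, were chosen after their values were seen.

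Of 35 integrated stress response genes, the targets of the transcription factor ATF4 and its partners, 4 were called higher and 1 lower in FK and none in FKNR in edgeR (1 higher and 21 lower at an unadjusted p under 0.05, none called by DESeq2). Their median was 0.24 in FK and −0.24 in FKNR, and 20 were lower than Ctrl at an adjusted p under 0.05 without a fold minimum, where 12.8% of all genes were. Atf5, a transcription factor of this response, was at 77.9, 76.9 and 86.8 CPM in Ctrl, 141, 165 and 123 in FK, and 63.3, 66.1 and 65.9 in FKNR. FK wells were above Ctrl and FKNR wells below it (0.83, and −0.31, adjusted p = 0.0253 in edgeR). Psph, of serine synthesis, was at −0.47 (adjusted p = 0.00828 in edgeR) and Chac1, a glutathione-degrading enzyme, at −0.45 (adjusted p = 0.00942 in edgeR) in FKNR, both under the fold minimum. With the length trend removed, 15 of the 35 were lower at that looser rule, where 9.23% of all genes were.

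The collagens Col7a1, Col20a1 and Col11a2, all called higher in both FK and FKNR, are not on the list of collagens, laminins and integrins. Col11a2, named after its values were seen, was at 1.21 in FK and 0.68 in FKNR. Of the 43 tested genes on that list, 9 were called lower and 1 higher in FK and none in FKNR in edgeR (13 higher and 3 lower at an unadjusted p under 0.05, and 2 called higher by DESeq2, which called 1.89% of all genes higher). Fibronectin (Fn1) was at 4846, 4122 and 3632 CPM in Ctrl, 1897, 1695 and 2576 in FK, and 6509, 5720.0 and 5716 in FKNR. Its wells were below Ctrl with FK866 (−1.03) and above Ctrl with NR (0.51, adjusted p = 0.0199 in edgeR), which did not pass the call, and FKNR was 1.54 above FK. Col1a2 was at −1.47 in FK and −0.09 in FKNR. Hspg2, perlecan of the basement membrane, was at 0.86 in FKNR (adjusted p = 0.0103 in edgeR).

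Of 24 tested Notch and Wnt genes, 7 were called lower and 1 higher in FK and none in FKNR in edgeR (2 higher and 6 lower at an unadjusted p under 0.05, none called by DESeq2). Some members were at intermediate levels. Hey1, a Notch target, was at 51.3, 51.4 and 50.4 CPM in Ctrl, 20.3, 22 and 17.9 in FK, and 37.6, 39.6 and 37.3 in FKNR. Its FKNR wells lay between the groups with no overlap (−1.35 in FK, and −0.42 in FKNR, adjusted p = 0.00738 in edgeR). The ligands Wnt4 (−1.04 in FK, and −0.36 in FKNR, adjusted p = 0.00942 in edgeR) and Wnt11 (−1.31 in FK, and −0.41 in FKNR, adjusted p = 0.00942 in edgeR) had the same order. In FKNREx 5 of the 24 were called lower than Ctrl, where 0.806% of all genes were.

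Of 29 tested genes of NADPH, glutathione and the transcription factor NRF2, 3 were called higher in FK and none in FKNR in edgeR or by DESeq2. At an unadjusted p under 0.05 in edgeR, 0 were higher and 18 lower in FKNR, where 19.1% and 20.2% of all genes were. Nqo1, a quinone reductase, was at 0.84 in FK and −0.19 in FKNR, and Ftl1, the ferritin light chain, at −0.50 in FKNR (adjusted p = 0.00986 in edgeR). Of 29 lysosome and autophagy genes 5 were called higher in FK, and 1, Mitf, in FKNR, where 2.09% and 0.793% of all genes were. Of 32 cell cycle genes 1 was called in FKNR, where 0.793% of all genes were called higher. This was the proliferation antigen Mki67, at 288, 249 and 173 CPM in Ctrl, 302, 258 and 378 in FK, and 439, 386 and 398 in FKNR (log2 fold change 0.78). Most of the list went the other way, with a median of −0.09 and 26 members below 0 against 6 above. At an unadjusted p under 0.05 in edgeR, 2 members were higher and 12 lower, where 19.1% and 20.2% of all genes were. Egr1 was the 1 gene called of 27 tested immediate early genes. The other lists, of lipid, sugar, amino acid and heme metabolism, chaperones, growth signalling, heart muscle and cell death, held no called member in edgeR or by DESeq2, with 0 to 14 members higher and 1 to 13 lower at an unadjusted p under 0.05.

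**Figure D5:**
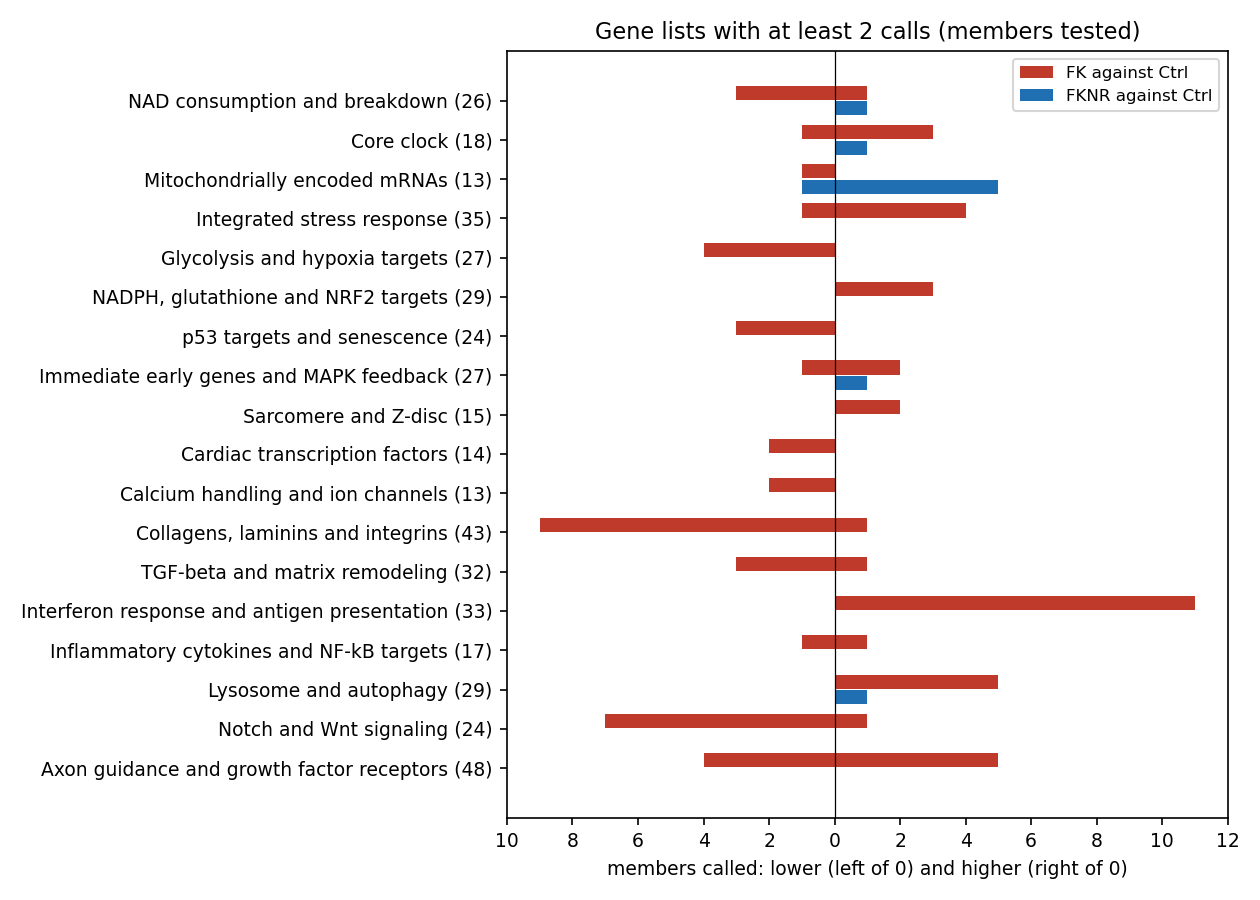
Number of members called higher (right of 0) and lower (left of 0) in FK (red) and in FKNR (blue) against Ctrl, for lists with at least 2 calls over both comparisons, with the number of members tested in brackets. The interferon list has 11 called higher in FK and 0 in FKNR, and the mitochondrially encoded mRNAs 0 called higher in FK and 5 in FKNR.

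A list of 43 nuclear genes of the respiratory chain does not hold Ndufa11, the complex I gene called lower and described above. Of its 42 tested members, none was called in FKNR in edgeR (0 higher and 39 lower at an unadjusted p under 0.05, none called by DESeq2), and their log2 fold changes ranged from −0.57 to −0.06 with a median of −0.32. Without a fold minimum, 34 were lower at an adjusted p under 0.05, where 12.8% of all genes were. The median was −0.08 in FK and −0.16 in FKNREx. Within the list the lowest were Uqcrq of complex III (−0.57, adjusted p = 0.00925 in edgeR) and Cox7a2 of cytochrome oxidase (−0.55, adjusted p = 0.00942 in edgeR). Such genes are short, and with the length trend removed their median was −0.21 and 19 were lower at the looser rule, where 9.23% of all genes were.

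Among families chosen after the values were seen, the 89 cytosolic ribosomal protein genes had a median of −0.33, with none called in edgeR and 59 lower at the looser rule. The 77 mitochondrial ribosomal protein genes had a median of −0.27, with Mrps24 called lower and 41 lower at the looser rule, where 12.8% of all genes were. The medians of the cytosolic and mitochondrial families were −0.04 and 6.9e-05 in FK, and −0.10 and −0.13 in FKNREx. Their median lengths were 1840 bases, in the class of 1001 to 2000 bases whose own median was −0.19, and 2255 bases, in the class of 2001 to 4000 bases whose own median was −0.10.

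With Ex527 added, the genes called in FKNR were given the same way. The 18 higher genes that stayed different had a median log2 fold change of 0.92 in FKNREx against Ctrl and the 6 lower ones of −0.56, beside 1.18 and −0.81 in FKNR. The 99 newly higher genes had a median of 0.60 in FKNREx, beside 0.82 in FKNR, and the 10 newly lower genes of −0.17, beside −0.62. Over all 117 higher genes the FKNREx median was 0.64. All of these share the Ctrl libraries. The genes were chosen by their values in FKNR, so smaller values in FKNREx are expected from that choice. The medians are thus a description and do not test an effect of Ex527. Dnm3os was the 1 newly different gene for which FKNREx and FKNR differed by the main rule, in a comparison that uses the same FKNR libraries.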

How the data were processed

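Poly(A) RNA of 12 HL-1 wells was sequenced as paired ends. The authors deposited a table of raw read counts per gene, used for all tests, and FPKM values, used only for marker levels. Per the labels, HISAT2, HISAT and TopHat2 (versions not given) and the mouse build mm10 were used. The counting program and the strand setting are not given in the sources used here. Heart tables were not used here, and 0 columns of per-sample values were left unmapped.

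Counts were filtered with filterByExpr, scaled by TMM and fitted with edgeR 4.0.16 (R 4.3.3, limma 3.58.1), with 1 mean for each of the 4 groups of 3 wells. A gene was called at a Benjamini-Hochberg adjusted p under 0.01 and a fold over 1.5, the thresholds of the study. All adjusted p-values were taken over every gene tested, and fold changes are on the log2 scale. DESeq2 1.42.0, other scalings and filters, a replicate block, and each well left out were alternatives. Removing a gene-length trend, leaving out 2 wells and the looser threshold were added after seeing the data. Named genes were the 12 largest called changes in each direction with an average count of at least 50 and no overlap of groups, the 10 largest called in both FK and FKNR, the 10 largest new ones also called against FK, called members of the lists, and Nampt, Sirt1, Nmrk1 and Nmrk2, leaving out predicted genes and pseudogenes. A gene that met this rule is not reported here. The members and lists were chosen with earlier results of these data known. Library totals of 21337922 to 35000109 counts set the counting precision.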

Additional observations from a re-analysis of the deposited data

How the results depend on the processing

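With FK866 and NR, 133 genes were called in edgeR, 24 of them also with FK866 alone and 109 not, 23 of the 109 also against FK, and 11 were on a list. These 5 counts are given in this order. DESeq2 gave 321 called, 48 stayed, 273 new and 52 also against FK on all 12 libraries. On only the groups compared, DESeq2 gave 327, 37, 290 and 69 for the same counts, and edgeR gave 13 stayed and 185 new. Library totals without TMM gave 81 called and 60 new. No filter on low counts gave 764, 61, 702, 407 and 18, and an average count over 5 gave 0 for all 5. An adjusted p under 0.05 gave 661 called, 132 stayed, 528 new and 19 on lists. These 4 counts were 392, 124, 259 and 44 with no fold minimum, and all 0 in an edgeR test against the fold itself. An adjusted p under 0.05 with no fold minimum gave 3532 called, 1021 stayed, 2364 new and 237 on lists. Leaving out 1 replicate gave 0 to 427 called, 0 to 72 stayed, 0 to 357 new, 0 to 92 also against FK and 0 to 20 on lists, with 0 called in 6 of 9 fits (without Ctrl 2, Ctrl 3, FK 1, FKNR 1, FKNR 2 or FKNR 3). Leaving out both Ctrl 3 and FKNR 1 gave 0 for all 5. In the 9 settings with 0 calls, edgeR had 506 to 6101 genes at an unadjusted p under 0.05 and a smallest adjusted p of 0.0115 to 0.502. The cause of these differences was not tested. At an adjusted p under 0.05 with the fold minimum, leaving out 1 replicate gave 132 (without Ctrl 3) to 908 (without Ctrl 1) genes, and 138 without FKNR 1. Replicate numbers did not pair the wells: the correlations of same-numbered Ctrl and FKNR deviations were 0.101, 0.0035 and 0.0847. The replicate block gave 8 called, 2 stayed, 6 new, 1 also against FK and 0 on lists, and with the length trend removed as well 74 called and 56 new. The median FKNREx change of the 117 higher genes, 0.64, was 0.48 with the length trend removed, with and without the block, and 0.54 to 0.73 when 1 replicate was left out. Nampt, at about 0 in the comparison, was above 0 at 0.0058 in DESeq2 and 0.0049 in edgeR on only the groups compared, 0.013 without TMM, 0.019 without both libraries, and −0.022 to 0.032 when 1 replicate was left out. Over all alternatives the 44 named genes gave 555 results on the same side of the threshold, 491 with the same direction that no longer passed, 1 that newly passed and the 7 of Nampt with another sign.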
